A study of Mus musculus with 8 samples.

Results

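The 10 genes described here encode chromatin regulators and lie on mouse chromosome 4: Kdm1a, Hdac1, Arid1a, Chd7, Chd5, Kdm4a, Kdm4c, Rbbp4, Prdm2 and Hp1bp3. They were taken from a list of names, and each was scored as the mean of the timing bins that overlap it. All 10 were measured, out of 1301 protein-coding genes with a timing score on the chromosome. Repli-seq, which reads when each stretch of DNA is copied during S phase, was run on cultured mouse embryonic stem cells, with 2 profiles of control JM8N4 cells and 2 of cells that carry a Klf4 enhancer deletion. Each profile comes from an early and a late S-phase library, which makes 8 libraries in all. Cells took up the nucleotide analog BrdU for 2 h before the fractions were sorted, and the labelled DNA of 40000 cells per fraction was pulled down and sequenced. The numbers 1 and 2 are those of the column names, and the labels do not say that they mark pairs. The labels give no culture or clone for a replicate, and no position of the deleted enhancer. The p-values therefore measure the spread between these profiles, which may be technical. The deposited scores come without read counts, so their depth is unknown, and replication timing does not allow the cell type to be checked against expressed markers.

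Mammalian chromosomes replicate in domains: blocks rich in active genes are copied early in S phase, and gene-poor, compact blocks are copied late. Chromatin regulators act on the packaging of DNA itself. Histone demethylases and deacetylases remove chemical marks from histone tails, ATP-driven remodellers slide or evict nucleosomes, and linker-type proteins compact the fibre. Embryonic stem cells are known to depend on several of these enzymes to keep an open chromatin state and to leave it when they differentiate. A score above 0 is called early here and a score at or below 0 late. Higher scores were read as earlier because the DNA with a mean score above 0 was the gene-rich part, at 15.1 protein-coding genes per Mb, beside 2.96 in the rest.

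The reference held 10 annotated start sites for 7 of the 10 genes, and the 250 bases before each were read from RefSeq (GRCm38.p6, the same build as mm10). Chd7, Hdac1 and Prdm2 had no entry. Those shown belong to the member with the earliest mean score, Hp1bp3, the member with the latest, Kdm4c, and the close relative of the latter, Kdm4a. Each is written 5′ to 3′ on the strand of its gene, with every CpG in capitals.
Hp1bp3, chr4:138216877-138217126, plus strand: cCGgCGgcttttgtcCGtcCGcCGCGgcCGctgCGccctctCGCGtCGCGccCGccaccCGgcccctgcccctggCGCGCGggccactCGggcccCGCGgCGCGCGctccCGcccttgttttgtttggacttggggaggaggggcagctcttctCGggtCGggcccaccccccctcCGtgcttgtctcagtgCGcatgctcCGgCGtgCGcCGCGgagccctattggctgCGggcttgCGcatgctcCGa
Kdm4a, chr4:118180044-118180293, minus strand: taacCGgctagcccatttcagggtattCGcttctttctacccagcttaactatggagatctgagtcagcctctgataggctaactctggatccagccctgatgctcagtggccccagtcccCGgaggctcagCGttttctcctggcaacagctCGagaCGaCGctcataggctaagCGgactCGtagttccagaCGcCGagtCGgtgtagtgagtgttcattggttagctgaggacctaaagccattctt
Kdm4c, outer start, chr4:74242247-74242496, plus strand: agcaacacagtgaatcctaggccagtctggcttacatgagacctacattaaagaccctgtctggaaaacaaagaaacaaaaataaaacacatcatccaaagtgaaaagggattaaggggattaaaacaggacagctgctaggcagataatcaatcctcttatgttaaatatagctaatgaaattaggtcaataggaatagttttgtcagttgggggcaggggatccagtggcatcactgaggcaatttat
Kdm4c, inner start, chr4:74251629-74251878, plus strand: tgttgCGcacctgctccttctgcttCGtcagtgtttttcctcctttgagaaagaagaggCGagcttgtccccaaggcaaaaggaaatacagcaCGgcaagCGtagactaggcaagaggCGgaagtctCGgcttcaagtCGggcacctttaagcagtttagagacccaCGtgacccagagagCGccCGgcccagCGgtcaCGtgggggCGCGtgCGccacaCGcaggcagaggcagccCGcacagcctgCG

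The Hp1bp3 stretch held 36 CpG and 75.6% G+C, and the Kdm4a stretch 12 CpG and 53.6% G+C. The outer start of Kdm4c had no CpG and 39.6% G+C, while its inner start had 19 CpG and 60.4% G+C. The remaining starts held 30 CpG for Rbbp4, 18 and 33 for Arid1a, 21 for Kdm1a, and 21 and 22 for Chd5. The Chd5 stretches, 152338401 to 152338650 and 152338404 to 152338653, are nearly the same sequence but were counted separately. The median over the 10 starts of the members was 21 CpG, beside 11 over 1367 starts of 1067 protein-coding genes of the chromosome. Across the chromosome the median was 13 CpG for 1148 starts of genes with a mean score above 0 and 2 for 219 starts of genes at or below 0. Both starts of Kdm4c lay in bins of nearly equal mean score, 0.66 at the outer and 0.64 at the inner start. These are descriptions of reference sequence and were not tested.

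All 10 genes replicated early in all 4 profiles, where 79.7% of all measured protein-coding genes did. The median of their mean scores was 2.53, beside 2.55 for all 1301 genes, so the set as a whole sat at the middle of the chromosome's genes. Its members spanned a wide range, from 3.24 for Hp1bp3 (percentile 94.4 of all genes) to 0.48 for Kdm4c (percentile 21.1). From earliest to latest the order was Hp1bp3, Kdm1a, Chd5, Kdm4a, Prdm2, Arid1a, Hdac1, Rbbp4, Chd7 and Kdm4c. Several neighbours in this order were not separated in every profile. Hp1bp3 scored above Kdm1a in 2 of 4 profiles, and Chd5 above Kdm4a in 2 of 4. Prdm2 over Arid1a, Rbbp4 over Chd7 and Chd7 over Kdm4c held in 3 of 4. The 4 other steps of the order held in 4 of 4 profiles. The smallest of these was Arid1a over Hdac1, a mean gap of 0.14 ± 0.13 (SD over the 4 profiles), and the largest was Hdac1 over Rbbp4, a gap of 0.41 ± 0.17.

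**Figure D1:**
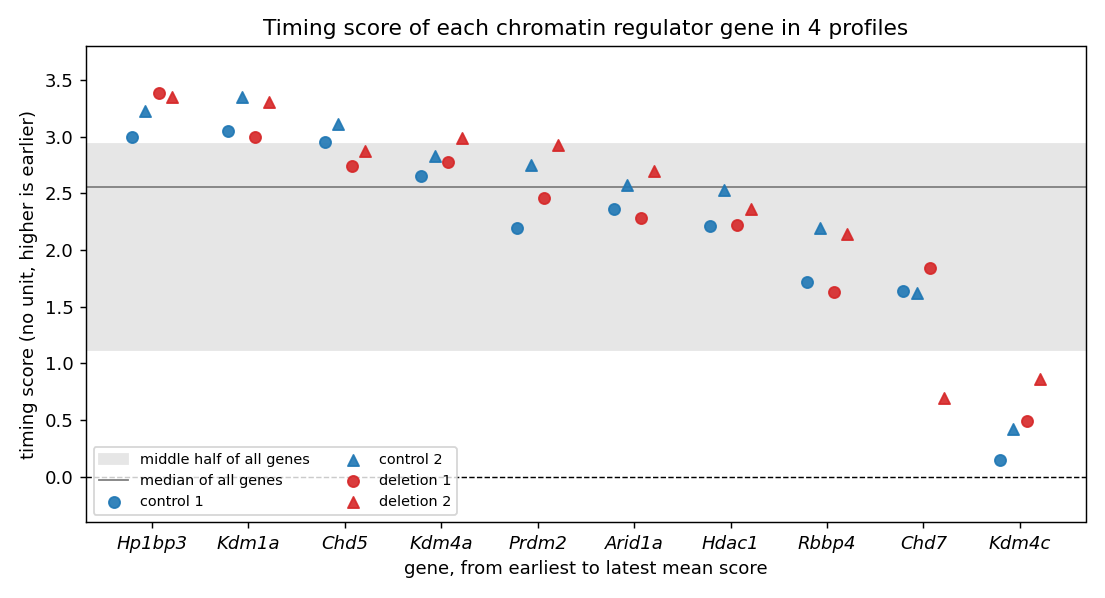
Mean timing score (vertical axis, no unit, larger values earlier) of the bins overlapping each gene, with 1 point per profile: blue for control, red for deletion, circles for replicate number 1 and triangles for number 2. The grey band spans the middle 50% of all measured protein-coding genes, from 1.12 to 2.93, and every point of the 10 genes lies above 0, the lowest being 0.15 for Kdm4c in control 1.

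Among the histone demethylases, the timing of the 3 genes ran from the early to the late end of the set. Kdm1a (136550533 to 136602787) encodes LSD1, which removes methyl groups from histone lysines with a flavin cofactor. It scored 3.05 in control 1, 3.35 in control 2, 2.999 in deletion 1 and 3.31 in deletion 2. The genotypes overlapped, with number 2 higher than number 1 in each, and its mean score was at percentile 90.5 of all genes. Number 2 was also higher in the median of all genes. That median was 2.36 and 2.61 in controls 1 and 2, against 2.43 and 2.73 in deletions 1 and 2. Kdm4a (118136957 to 118180090) and Kdm4c (74242497 to 74405864) encode closely related demethylases of the JmjC type, which act on other histone lysines. Kdm4a scored 2.66 and 2.83 in controls 1 and 2, against 2.78 and 2.99 in deletions 1 and 2, again with overlap. Kdm4c scored 0.15 and 0.42 in controls 1 and 2, against 0.49 and 0.86 in deletions 1 and 2, so both deletion profiles were higher than both controls. Kdm4c was later than Kdm4a in 4 of 4 profiles, by 2.13 to 2.51 score units, the mean gap being 2.33 ± 0.16 (SD over the 4 profiles).

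The gene of the deacetylase Hdac1 and that of its partner Rbbp4 lie 181 kb apart in the same early domain. Rbbp4 is a histone-binding subunit found with Hdac1 in the NuRD and Sin3 complexes, and also in other chromatin complexes. Hdac1 (129516104 to 129542646) scored 2.21 and 2.53 in controls 1 and 2, against 2.22 and 2.36 in deletions 1 and 2. Rbbp4 (129307100 to 129335370) scored 1.71 and 2.19 in controls 1 and 2, against 1.63 and 2.15 in deletions 1 and 2. In both genes the genotypes overlapped and the number 2 profiles were higher than the number 1 profiles, as in the median of all genes. Despite their closeness, Rbbp4 was later than Hdac1 in 4 of 4 profiles, by 0.22 to 0.59. Both genes sat in a dip of their domain. Bins 250 to 750 kb away averaged 3.01 around Hdac1 and 2.70 around Rbbp4, which put the genes 0.68 and 0.78 below their surroundings. Nearby genes shared that dip: Zbtb8os beside Rbbp4 scored 2.05 and Marcksl1 beside Hdac1 scored 2.40.

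The remodeller genes included 2 members of the CHD family of ATPases and Arid1a, the DNA-binding subunit of the BAF (SWI/SNF) complex. Arid1a (133679008 to 133756769) scored 2.36 and 2.57 in controls 1 and 2, against 2.28 and 2.70 in deletions 1 and 2, with the controls inside the range of the deletion profiles. Chd5 (152338646 to 152390194), a gene best known in neurons and as a tumour suppressor, scored 2.96 and 3.11 in controls 1 and 2, against 2.74 and 2.87 in deletions 1 and 2. Both deletion profiles were lower than both controls. Chd7 (8690402 to 8868449), whose human counterpart is mutated in CHARGE syndrome, scored 1.64 and 1.62 in controls 1 and 2, against 1.84 and 0.70 in deletions 1 and 2. Deletion 2 stood well below the other 3 profiles, and deletion 1 above both controls. Chd7 was later than Chd5 in 4 of 4 profiles, by 0.90 to 2.18.

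Prdm2 lay near the middle of the set and Hp1bp3 at its early end. Prdm2 (143107391 to 143212769) encodes a zinc finger protein with a PR domain, a relative of the SET domain of histone methyltransferases. It scored 2.19 and 2.75 in controls 1 and 2, against 2.46 and 2.93 in deletions 1 and 2, with overlap. Hp1bp3 (138216470 to 138244683) encodes a heterochromatin protein related to linker histones. Its scores were 2.998 and 3.23 in controls 1 and 2, against 3.39 and 3.35 in deletions 1 and 2. Both deletion profiles were higher than both controls, and the difference between the deletion profiles was small.

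By the distance of their scores in the 4 profiles, the gene most like Hp1bp3 and over 1 Mb from it was Hemgn, at a Euclidean distance of 0.25. Those most like Kdm4c were Olfr267 and Cyp4a32, at 0.24 and 0.31. These likenesses rest on 4 profiles.

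The 10 genes fell into 7 of the 39 early domains of the chromosome, where a domain is an unbroken run of bins whose mean over the 4 profiles is above 0. Arid1a, Kdm1a and Hp1bp3 shared the longest early domain, 10.9 Mb with 206 protein-coding genes. Hdac1 and Rbbp4 shared a domain of 2.65 Mb with 53 genes, and Kdm4a lay in a domain of 4.26 Mb with 103 genes. The others each had a domain of their own: 1090 kb for Chd5, 745 kb for Chd7, 640 kb for Prdm2 and 340 kb for Kdm4c, with 20, 2, 9 and 2 genes in the same order. The median length of an early domain was 965 kb, which the Chd5 domain exceeded and the last 3 did not reach. The domain of the median member was 2645 kb long, beside 4255 kb for the 1058 genes that lie in early domains. Kdm1a was the member farthest from a domain edge, 4936 kb, at percentile 98.6 of those genes. Kdm4c was the nearest, 39.1 kb, at percentile 2.65.

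**Figure D2:**
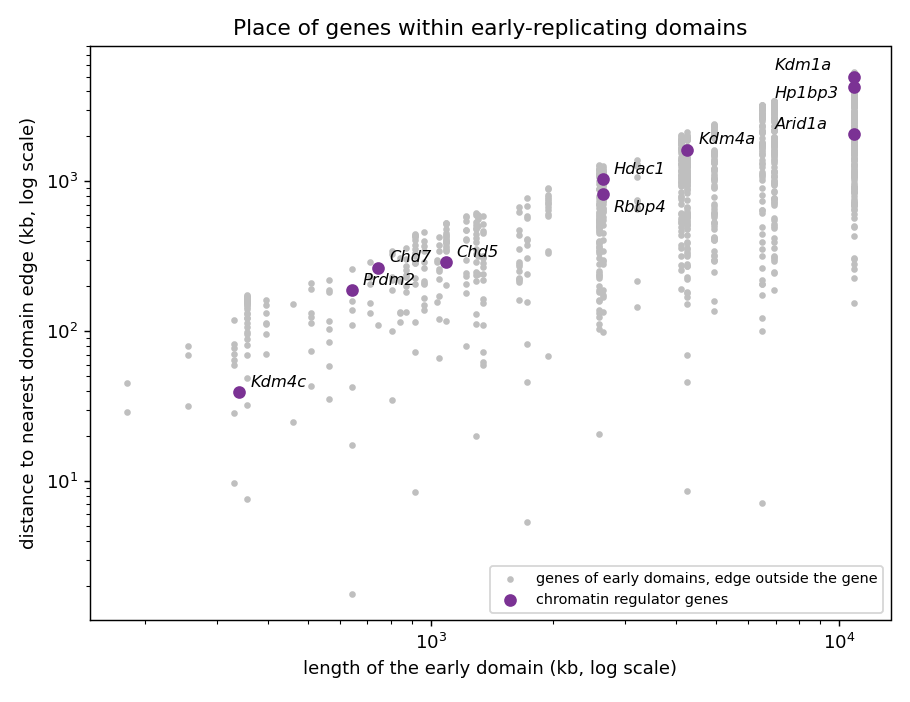
Distance from a gene to the nearest edge of its early domain (vertical axis, kb, log scale) against the length of that domain (horizontal axis, kb, log scale), for genes of early domains that do not reach past an edge (grey) and the 10 chromatin regulator genes (purple). Kdm1a, Hp1bp3 and Arid1a share the domain of 10905 kb at the right, and Kdm4c sits at the lower left, 39.1 kb from the edge of a domain of 340 kb.

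Kdm4c, Chd7, Prdm2 and Chd5 lay well above the DNA around them. The mean score of each gene was compared with that of bins 250 to 750 kb away on both sides. Prdm2 stood 3.57 above these bins, at percentile 99.4 of all genes, Kdm4c 2.77 above, Chd7 2.44 above and Chd5 2.21 above. The median gene of the chromosome stood 0.31 above its surroundings, and the median member 0.39. Hp1bp3 and Kdm1a were 0.38 and 0.41 above theirs, and Kdm4a and Arid1a were near level with them, at -0.034 and -0.13. The surroundings of Kdm4c averaged -2.30, those of Chd7 -0.99 and those of Prdm2 -0.98. Those of Chd5 were early in 4 of 4 profiles, at a mean of 0.71. The number of protein-coding genes within 500 kb was 3 for Chd7, 7 for Kdm4c, 12 for Prdm2 and 20 for Chd5, beside 35 for Arid1a, 31 for Rbbp4 and a median of 17 over all genes.

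The early domain of Kdm4c was the shortest of these 4 and differed in length between profiles. It measured 235 kb in control 1 and 360 kb in control 2, against 320 kb in deletion 1 and 395 kb in deletion 2. Number 2 was thus wider than number 1 in both genotypes. The border was fixed at 0, and number 2 was also higher over the chromosome. The median bin scored -0.79 and -0.37 in controls 1 and 2, against -0.73 and -0.21 in deletions 1 and 2. The highest bin of the mean profile, at 74225000, lay just before the 5′ end of the gene. In single profiles its place differed by number. It lay inside the gene in control 1 and deletion 1, at 74255000 and 74265000. In control 2 and deletion 2 it lay before the gene, at 74195000 and 74190000. The mean score declined along the gene, from 0.66 in the bin of the outer start to 0.21 in the bin of the 3′ end. In control 1 the early domain ended inside the gene, and 29 of its 34 bins were above 0, while all 34 were above 0 in the other profiles. Frmd3, 40.3 kb before Kdm4c, was early in 2 of 4 profiles, with a mean score of -0.050. With the median of the mean profile as the border in place of 0, the domain measured 455 kb and its edge lay 104 kb from the gene.

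Chd7 lay in an early domain in every profile, and the scores there were lower in deletion 2. The domain measured 750 kb in control 1, 800 kb in control 2, 750 kb in deletion 1 and 675 kb in deletion 2. The place of the highest bin within the domain differed between profiles, and its score was 2.19 in control 1, 1.83 in control 2, 2.11 in deletion 1 and 1.27 in deletion 2. The unbroken run of bins around the middle of Chd7 in which deletion 2 was the lowest of the 4 profiles was noticed in the scores. It covered 785 kb, from 8545000 to 9329999. In that run deletion 2 was on average 0.80 below control 2, while deletion 1 minus control 1 was -0.024. The bins were picked by these same scores, so the averages only describe the run. Such runs elsewhere on the chromosome were not compared. Bins 250 to 750 kb from the gene scored -1.08 and -0.89 in controls 1 and 2, against -1.20 and -0.78 in deletions 1 and 2. Rab2a, 82.7 kb below Chd7, scored 1.60 and 1.27 in controls 1 and 2, against 1.64 and 1.15 in deletions 1 and 2. Clvs1, 276 kb above it, was late in 4 of 4 profiles, at a mean of -1.07, and differed by -0.15 within number 1 and by -0.57 within number 2.

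In the mean profile, Prdm2 lay on the top of its peak, with bins between 2.51 and 2.62. The highest bin lay inside the gene in control 2 and deletion 2, at 143190000 and 143110000. In control 1 and deletion 1 it lay at higher coordinates than the gene, at 143380000 and 143220000. The Prdm2 domain measured 610 kb in control 1, 700 kb in control 2, 570 kb in deletion 1 and 685 kb in deletion 2. The next gene at lower coordinates, Kazn, lay 868 kb away beyond a late stretch and scored 2.90, and Pdpn, 54.6 kb at higher coordinates, scored 2.28. Chd5 lay on a slope, rising from 2.70 in its first bin to 3.16 in its last, towards Kcnab2, which begins 0.55 kb farther on and scored 3.35. On the other side of Chd5, Rpl22 scored 2.64. In Hp1bp3 and Kdm1a, which lie inside a long early plateau, the bins differed by 0.025 and 0.047.

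**Figure D3:**
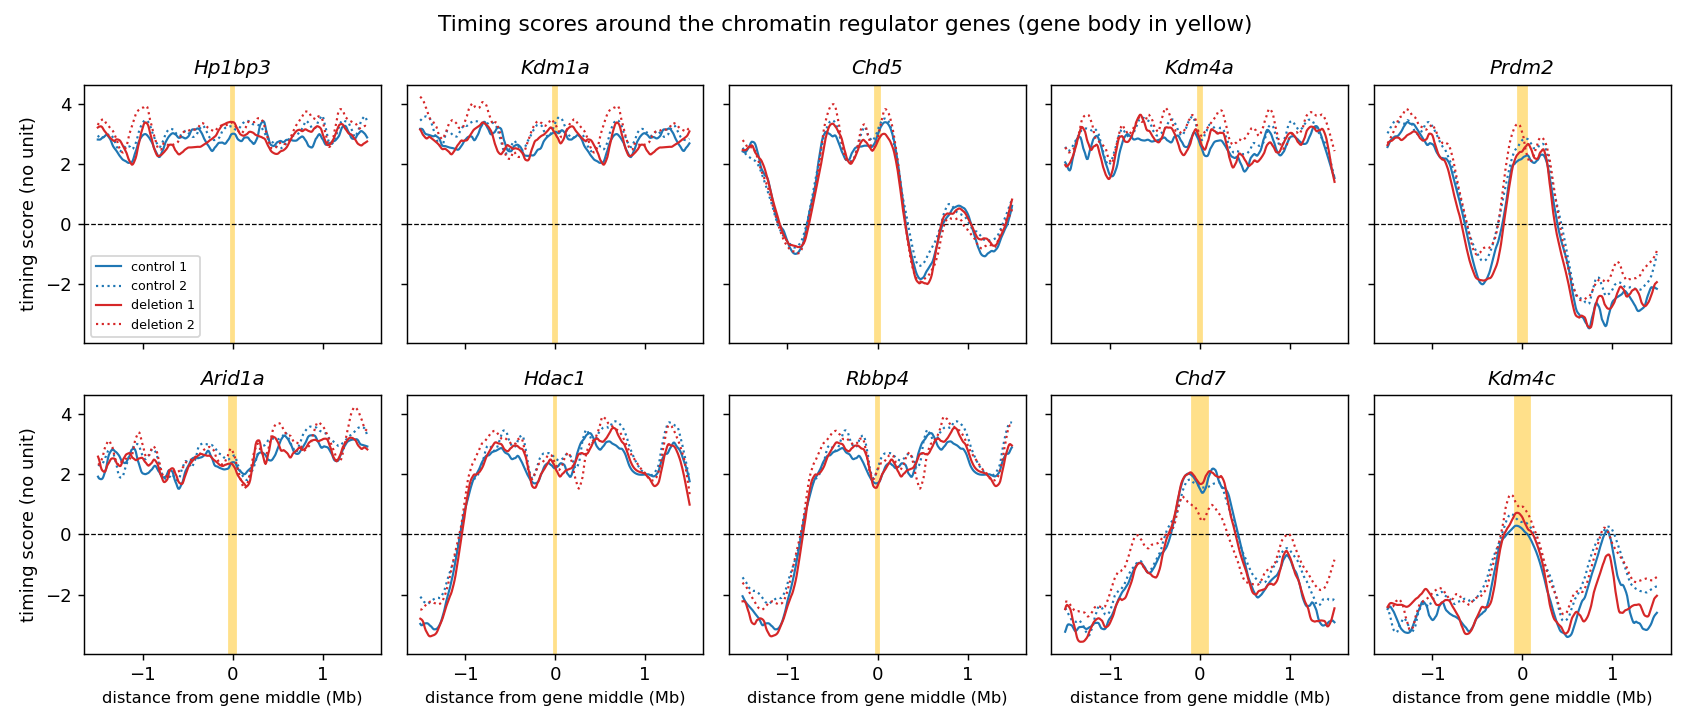
Timing score (vertical axis, no unit) against distance from the middle of each gene (horizontal axis, Mb) for the 4 profiles: blue for control, red for deletion, solid lines for replicate number 1 and dotted lines for number 2, with the gene body in yellow. Kdm4c, Chd7, Prdm2 and Chd5 sit on peaks that fall below 0 on both sides within 1.5 Mb, and over Chd7 the deletion 2 line lies below the other 3.

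The deletion was then compared with control at each gene. None of the 10 genes passed the test, and neither did any of the 1301 genes (limma, Benjamini-Hochberg adjusted p under 0.05, 0.0% called). At an unadjusted p under 0.05 there were 0 of the 10 genes and 1.31% of all genes. The lowest unadjusted p of the set was 0.26, for Kdm4c, with an adjusted p of 0.9995 for all 10. Standard errors of the difference lay between 0.337 and 0.368, above the size of the difference in 9 of the 10 genes. These are limma's moderated errors (eBayes), which draw on the variance of all 1301 genes and follow a gene's own spread only weakly. They were 0.34 for Chd5 and 0.37 for Chd7. The SD of the Chd5 scores was 0.11 (control) and 0.095 (deletion), that of the Chd7 scores 0.0096 and 0.81. An exact two-sided permutation test of a single gene cannot give a p below 0.333 with these groups.

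The largest differences had opposite signs. Kdm4c was 0.39 higher in deletion than in control cells (0.67 ± 0.26 against 0.28 ± 0.19, SD, n = 2 each; limma SE 0.34). It was 0.34 higher within number 1 and 0.44 within number 2. Chd7 was at -0.36 (1.27 ± 0.81 against 1.63 ± 0.0096; limma SE 0.37), the lower 2.46% of all genes, with 0.20 within number 1 and -0.93 within number 2. Without deletion 2 the Chd7 difference was 0.21, so its direction rests on that profile. Chd5 was at -0.23 (2.81 ± 0.095 against 3.03 ± 0.11; limma SE 0.34), with -0.22 and -0.24 within the numbers, and Hp1bp3 at 0.26 (3.37 ± 0.029 against 3.11 ± 0.16; limma SE 0.34), with 0.39 and 0.12.

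The other members differed less. Prdm2 was at 0.22, with 0.27 within number 1 and 0.18 within number 2, and Kdm4a at 0.14, with 0.12 and 0.16. Arid1a was at 0.025, with -0.074 and 0.13. Kdm1a was at -0.046, with -0.052 and -0.040. Rbbp4 was at -0.064, with -0.084 and -0.044, and Hdac1 at -0.079, with 0.013 and -0.17. Apart from Kdm4a, the differences of these genes each turned sign when at least 1 of the profiles was left out.

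Within the replicate numbers, Kdm4c, Hp1bp3, Prdm2 and Kdm4a were higher in deletion cells in both, 4 of 10 where 43.7% of all genes were. Chd5, Kdm1a and Rbbp4 were lower in both, 3 of 10 where 14.4% of all genes were. Chd7, Arid1a and Hdac1 had opposite signs, 3 of 10 where 42.0% of all genes did. In Kdm4c and Hp1bp3 each deletion profile exceeded each control, 2 of 10 where 15.1% of all genes did so, and in Chd5 each was under each control, 1 of 10 where 6.53% of all genes were. The shares of genes higher in both and of non-overlapping genes were near the background, and the share lower in both, which rests on 3 genes, was above it. The counts depend on the scaling: after median centring 3 members were higher and 5 lower within both numbers, where 30.2% and 25.5% of all genes were. After quantile normalization 1 was higher and 5 lower, where 24.8% and 30.6% of all genes were.

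The median difference of all genes, deletion minus control, was 0.14, which became 0.027 after median centring and -0.027 after quantile normalization. Its sign rests on single profiles: the median was -0.022 without control 1 and -0.065 without deletion 2, against 0.28 without control 2 and 0.32 without deletion 1. Relative to that median, Kdm4c was at 0.25, Hp1bp3 at 0.12, Prdm2 at 0.083 and Kdm4a at 0.0059. The other 6 genes were below it: Arid1a at -0.11, Kdm1a at -0.18, Rbbp4 at -0.20, Hdac1 at -0.22, Chd5 at -0.36 and Chd7 at -0.50. The median difference of the 10 genes was -0.010. Klf4, whose enhancer is the deleted one, was at -0.16 as deposited, with -0.47 within number 1 and 0.16 within number 2.

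**Figure D4:**
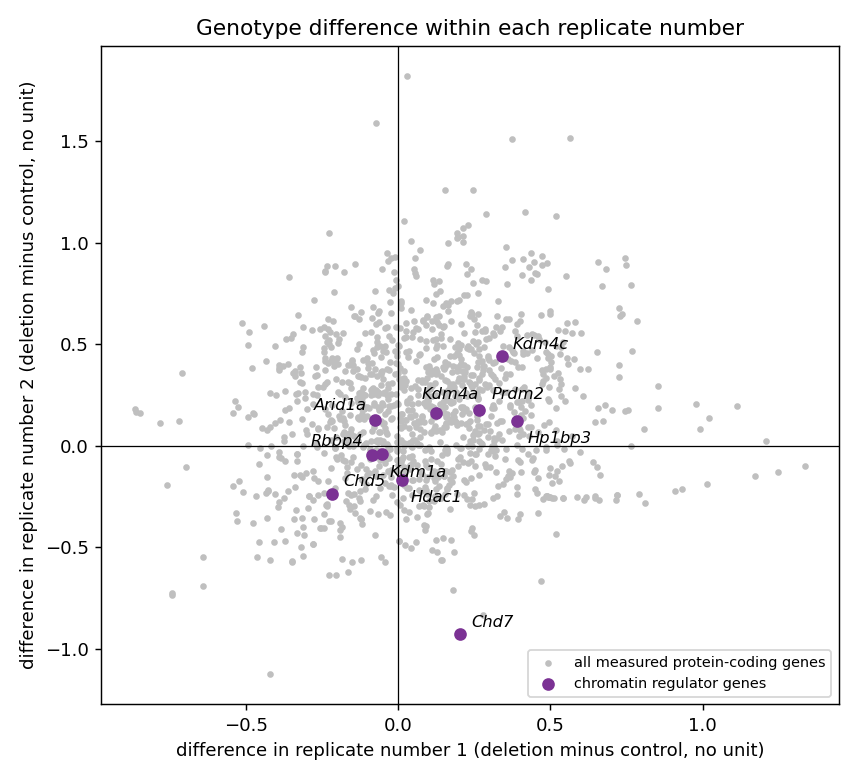
Difference in timing score, deletion minus control, within replicate number 1 (horizontal axis, no unit) and number 2 (vertical axis, no unit), for all measured protein-coding genes (grey) and the 10 chromatin regulator genes (purple). Chd7 is the lowest of the set within number 2, at 0.20 and -0.93, Kdm4c at the upper right of the set, at 0.34 and 0.44, and Chd5 at the lower left, at -0.22 and -0.24.

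Around the members with non-overlapping groups, the unbroken stretch in which the groups did not overlap ran from 90 kb to 280 kb. Lengths of such stretches elsewhere on the chromosome were not compared. The stretch covered 115 kb at Kdm4c, from 74235000 to 74349999, with 22 of the 34 bins of the gene. At Chd5 it covered 90 kb and 10 of the 12 bins of the gene, and at Hp1bp3 280 kb and all 6 bins. Beside Kdm4c, Frmd3 differed by -0.044 within number 1 and 0.27 within number 2, and Dmac1, 871 kb away, by -0.76 and -0.19. The neighbours of Hp1bp3 had differences of the same sign, 0.36 for Eif4g3 and 0.23 for Sh2d5. Beside Chd5, Rpl22 differed by -0.22, while Kcnab2 differed by -0.37 within number 1 and by 0.18 within number 2.

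Another 16 genes of chromatin proteins on the chromosome were looked at beside the set: Prdm16, Prdm13, Phc2, Scmh1, Hmgn2, Nasp, Meaf6, Mllt3, Dmap1, Padi4, Mysm1, Rcc1, Phf13, Rere, Mier1 and Casz1. Their median score was 2.55, and 15 of 16 were early in all 4 profiles. The exception was Mllt3, a reader of histone acylation and part of a transcription elongation complex, which was late throughout. It scored -1.48 and -1.14 in controls 1 and 2, against -1.76 and -1.41 in deletions 1 and 2, later than any of the 10 members. Mier1, a gene of an Hdac1-recruiting corepressor, stood 3.42 above its surroundings in a domain of 510 kb, where Prdm2 stood 3.57 above in one of 640 kb. None of the 16 passed the test (limma, 0 up and 0 down, 0 at an unadjusted p under 0.05). Their median difference was 0.14, beside 0.14 for all genes. The highest were Hmgn2, a nucleosome-binding protein gene, at 0.44 and Prdm13 at 0.36, and the lowest were Mllt3 at -0.27 and Mysm1, a histone deubiquitinase gene, at -0.20. In 7 of them the deletion profiles were higher within both numbers and in 3 lower, beside the same 43.7% and 14.4% of all genes.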

How the data were processed

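Timing scores were analysed for 4 profiles, 2 per genotype, at 30659 of 31301 positions spaced 5 kb, those with a value in every profile. Per the file headers, the authors deposited 1 score per profile and position. The interquartile range of the scores is 4.60 in all 4. The log base and the smoothing are not given in the sources used here. Per the submitters' processing notes, Bowtie2, SAMtools and bedtools were used with mm10, versions not given in the sources used here. Columns were matched to genotypes by name. Genes came from RefSeq (GRCm38.p6), with 1328 protein-coding genes on the chromosome and 1301 measured, and a position was read as the start of its bin.

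Deletion and control were compared on the scores with limma 3.58.1 (lmFit, eBayes) in R 4.3.3, two-sided, over all 1301 genes, p-values adjusted by Benjamini-Hochberg and called under 0.05. Other numbers are descriptions made with Python 3.11.15. The members, the 16 other chromatin genes and the alternatives were chosen with earlier results of these data known. Named were all members, their nearest protein-coding neighbours, the most alike genes over 1 Mb from the earliest and latest member, and, of the 16, those late throughout and the 2 highest and 2 lowest differences. Some genes that these rules name are not reported here. Mier1 was named after its values were seen. Of the neighbours, those that bear on a result are given. A planned comparison of protein sequences was not made here. Alternatives were other scalings, other bins per gene, limma's trend and robust options, smaller gene sets, the replicate number as a block, each profile left out, and other domain borders.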

Additional observations from a re-analysis of the deposited data

How the results depend on the processing

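The 10 genes stayed early in every profile with 50 kb added on each side and with positions read as bin ends. Each profile's median as the border could not change this, since every one of these medians lay below 0. No member was called in any of the 17 alternatives of the fit. Kdm4c and Hp1bp3 stayed higher and Chd5 lower in all 17. Many of the 17 had no means of turning these signs. Where the groups do not overlap, leaving out a profile keeps the sign. The block alone, the trend and robust options and the smaller gene sets return the same difference, 0.3915 for Kdm4c. Median centring moved all genes by a common amount, and own interquartile ranges nearly repeated it. After median centring the differences were 0.2811 for Kdm4c, 0.1447 for Hp1bp3 and -0.3363 for Chd5. The shift was smaller than the Kdm4c and Hp1bp3 differences and took Chd5 farther down, so these settings were no check on the signs. Quantile normalization and other bins per gene were able to turn them. After quantile normalization the differences were 0.2454 for Kdm4c, 0.1201 for Hp1bp3 and -0.3901 for Chd5. Over the alternatives the adjusted p ranged from 0.401 to 0.9997 for Kdm4c, from 0.598 to 0.9997 for Hp1bp3, from 0.639 to 0.9997 for Chd5 and from 0.223 to 0.9997 for Chd7 (limma).

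Over all genes the count of calls stayed at 0 except without deletion replicate 1, where it was 4 (0.307%), all higher and none a member. Leaving out single profiles thus gave 0 to 4 calls. Each such fit leaves the numbers uneven between genotypes.

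The median difference of the members was -0.12 after median centring, alone, with the replicate block or with each profile's own interquartile range, -0.16 after quantile normalization and -0.035 with 50 kb on each side. It ranged from -0.14 to 0.21 with single profiles left out. Members lower within both numbers were 5 after median centring, with own interquartile ranges and after quantile normalization, and members higher were then 1 after quantile normalization. Arid1a turned to -0.085 after median centring, with or without the block, and with own interquartile ranges, to -0.12 after quantile normalization and to -0.020 with 50 kb on each side. Kdm4a turned to -0.017 after quantile normalization, where the median of all genes was -0.027. With single profiles left out the ranges were -0.18 to 0.23 for Arid1a, -0.93 to 0.21 for Chd7, -0.24 to 0.082 for Hdac1, -0.20 to 0.11 for Kdm1a, -0.060 to 0.50 for Prdm2 and -0.32 to 0.19 for Rbbp4. The sign turned without control 1 and without deletion 2 for Arid1a and Prdm2, without control 2 and without deletion 1 for Kdm1a and Rbbp4, without control 2 for Hdac1 and without deletion 2 for Chd7. Apart from the left-out profiles, the cause of these turns was not tested.

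With the replicate number as a block, the count of calls was 0 of 1301 genes, 165 having an unadjusted p under 0.05, and the lowest adjusted p of a member was 0.401, for Kdm4c (limma). Deviations of same-numbered profiles from their group means correlated at 0.33 over genes, which are not independent. The labels do not say that numbers are pairs. The unknown depth and 2 profiles per group limit all differences.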
